A study of Homo sapiens with 4 samples.

Results

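The genes that make cholesterol and fatty acids were examined after METTL14 knockdown in SK-N-BE(2), a MYCN-amplified cell line grown from a neuroblastoma. A total of 32 genes were chosen by name as mevalonate and sterol enzymes, regulators of the SREBP transcription factors and lipogenic enzymes, and each matched 1 of the 60671 gene IDs in the count table. The cells carried either a control hairpin (shNC) or a hairpin against METTL14 (shMETTL14), whose product works with METTL3 in writing N6-methyladenosine (m6A) into RNA. The study's methods describe knockdown lines as infected with the pLKO.1 lentiviral vector and selected with puromycin until they stably expressed the shRNA. The methods list 2 METTL14 hairpins. The labels do not say which was sequenced, or whether the 2 knockdown libraries carried the same one. Each group had 2 libraries, named replicates in the labels. Nothing states that they came from separate cultures, so p-values measure only the spread between these libraries, which may be technical.

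Animal cells build cholesterol from acetyl-CoA by way of mevalonate, farnesyl diphosphate, squalene and lanosterol. They build fatty acids from the same acetyl-CoA, and then lengthen and desaturate them. Genes of both routes are switched on by the SREBP factors, which SCAP carries from the endoplasmic reticulum to the Golgi for cleavage when sterols are low and which INSIG proteins hold back when sterols are high.

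The 4 libraries had between 18925786 and 19886214 counts in genes. METTL14 itself had 753 and 754 counts in shNC but 303 and 321 in shMETTL14, a level of 41.7% of the control, and so was lower in both libraries labelled as knockdown. The difference was -1.26 on the log2 scale (SE 0.0832, edgeR adjusted p 3.6e-11). Of 8 marker genes of the neuroblastoma line, none was at or under 3 counts, and MYCN and HAND2 led them. By the same test 2 of these 8 were higher and 6 lower in shMETTL14 cells. Of 10 markers of other cell types, PECAM1 and ADIPOQ stayed at or under 3 counts in every library. In contrast, LUM (between 4552 and 4896 counts) and PDGFRB (between 1977 and 2426 counts) were well expressed. DCN (between 705 and 741 counts) and COL1A1 (between 163 and 254 counts) were expressed with fewer counts. Of the 7 of these markers that could be tested, 0 were higher and 3 were lower, namely EPCAM (-0.72 in log2), COL1A1 (-0.48) and PDGFRB (-0.19). The summed level of the 10, most of it LUM, ran from 416.6 to 417.3 CPM (counts scaled to a common library total) in shNC and from 400.9 to 408.3 CPM in shMETTL14. Their part in the results was not tested.

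All 32 genes were expressed highly enough to test. At an edgeR adjusted p under 0.05, 20 of them were called, 13 upwards and 7 downwards after knockdown. With upper quartile scaling the split was 12 higher and 10 lower, so that 54.55% rather than 65% of the calls were higher. Over all 16309 genes tested, 52.5% were called, 27.2% higher and 25.3% lower, and among protein-coding genes 58.51% were called, so a share of 62.5% lay near the background. In 29 of the 32 genes the shMETTL14 libraries lay on 1 side of both shNC libraries, against 75.5% of all genes tested. The changes were small. No member was called with a change of at least 1.5-fold, whereas 18.8% of all genes tested were, and absolute log2 fold changes had a median of 0.26 in the members and 0.30 in all genes. Among the alternatives, NSDHL passed 1.5-fold without shNC library 1 (0.61 in log2) and without shMETTL14 library 1 (0.59), and CYP51A1 did so without shMETTL14 library 2 (-0.71). The median log2 fold change was 0.08 for the members, -0.00095 for all genes and 0.036 for protein-coding genes. All 32 members are protein-coding. Of the 12809 protein-coding genes tested, 4221 were called higher and 3273 lower, and their absolute log2 fold changes had a median of 0.27. In a bulk sample, fewer cells that express a gene and less RNA per cell cannot be told apart.

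**Figure D1:**
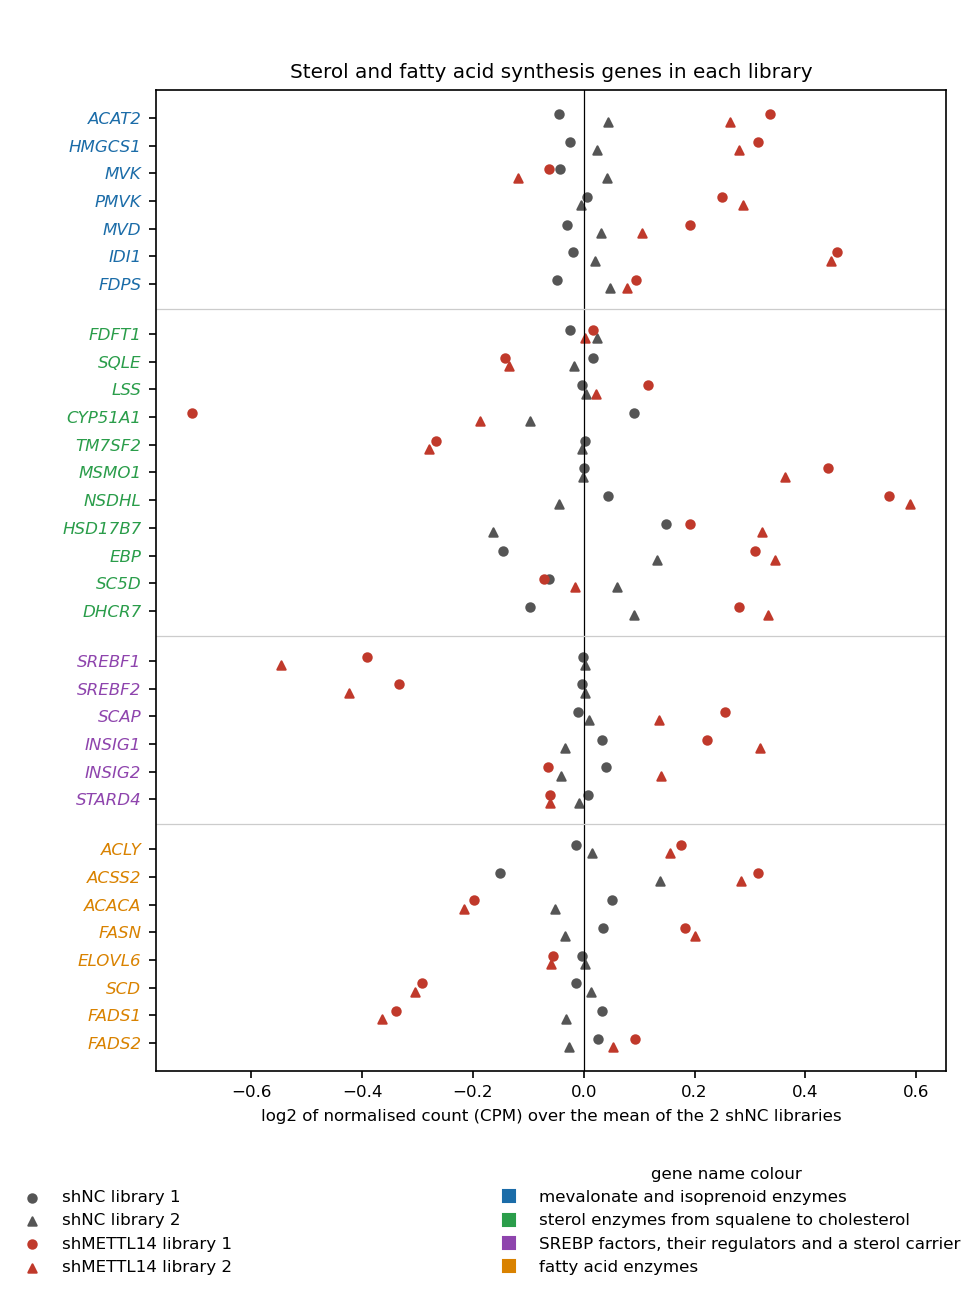
Normalised count (CPM) of each of the 32 genes in each library, as log2 of its ratio to the mean of the 2 shNC libraries; grey marks are shNC, red marks shMETTL14, circles library 1 and triangles library 2. NSDHL lies farthest to the right and SREBF1 and SREBF2 are shifted left in both shMETTL14 libraries, while FDFT1, SC5D and INSIG2 overlap between groups.

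In the mevalonate route, 4 of 7 genes rose, 0 fell and 3 did not pass the test, with a median log2 fold change of 0.27. The called share, 57.14%, was near that of all genes tested (52.5%) and of protein-coding genes (58.51%). ACAT2, the cytosolic thiolase that makes acetoacetyl-CoA, had 1719 and 1757 counts in shNC and 2199 and 2058 in shMETTL14. HMGCS1, which adds the next acetyl unit, went from 3185 and 3167 counts to 3962 and 3800. IDI1, which isomerises isopentenyl diphosphate, went from 1325 and 1308 counts to 1811 and 1768. In each of these 3 genes both knockdown libraries lay above both controls, though the groups did not overlap in 75.5% of all genes tested. IDI1 had the largest log2 fold change of the route, 0.45 (SE 0.0492, adjusted p 9.3e-08), or 137% of the control level. ACAT2 and HMGCS1 each had a value of 0.30 (SE 0.0487 and 0.0417, adjusted p 2e-05 and 3.1e-06). The counts of ACAT2 are uncertain, since 35.78% of its exon bases overlap SOD2 and TCP1, which are read from the opposite strand.

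The other members of the route had smaller values. PMVK, the kinase acting on phosphomevalonate, rose from 622 and 593 counts to 724 and 730, a change of 0.27 in log2 units (SE 0.0727, adjusted p 0.00369). With DESeq2 it just missed the threshold (adjusted p 0.052, and between 0.00147 and 0.052 over 11 alternatives). MVK, the kinase before it, had 577 and 588 counts in shNC and 559 and 529 in shMETTL14. Its log2 fold change of -0.09 had a 95% interval from -0.25 to 0.07. MVD, which forms isopentenyl diphosphate, had a log2 fold change of 0.15 (interval 0.01 to 0.28, adjusted p 0.0589), and FDPS, the farnesyl diphosphate synthase, one of 0.09 (adjusted p 0.101). FDPS was called without shNC library 2, at 0.14, but stood at 0.033 and was not called without shNC library 1. Summed over the 7 genes, the level was 581.1 and 609 CPM in shNC and 705.6 and 689.5 CPM in shMETTL14. The groups did not overlap in this sum, nor did they in 75.5% of the single genes tested. The sum includes ACAT2, whose counts are uncertain.

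Among 11 genes from squalene to cholesterol, 4 rose, 2 fell and 5 did not pass the test, with a median log2 fold change of 0.07. Calls thus made up 54.55% of this group, near the 52.5% of all genes tested. FDFT1, the squalene synthase and entry to the branch, had 4997 and 4962 counts against 5047 and 4916, and its log2 fold change of 0.01 had an interval from -0.07 to 0.09. SQLE, the squalene epoxidase and a rate-limiting step, fell from 2938 and 2758 counts to 2584 and 2554. Its log2 fold change was -0.14 (SE 0.0428, adjusted p 0.0094), but it was not called with DESeq2 (adjusted p 0.0969, the highest over 11 alternatives) or without shMETTL14 library 1 (-0.135, adjusted p 0.0584). LSS, which closes the ring of lanosterol, was not called at 0.07 (interval -0.03 to 0.17).

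The 4 genes that rose all act after lanosterol. NSDHL, which with MSMO1 and HSD17B7 removes methyl groups from the sterol ring, had 469 and 424 counts in shNC and 655 and 661 in shMETTL14. Its level was 22.8 ± 0.982 CPM in shNC and 33.9 ± 0.631 CPM in shMETTL14 (SD, n = 2 each), and its log2 fold change of 0.57 (SE 0.0791, edgeR adjusted p 2.9e-06) was the largest of all 32 genes. It exceeded the absolute value of 74.92% of all genes tested. MSMO1 went from 1153 and 1107 counts to 1537 and 1432, which is 0.40 on the log2 scale (SE 0.0534, adjusted p 1.6e-06). HSD17B7, the third enzyme of this set, had 248 and 192 counts against 251 and 270 and was not called at 0.25 (interval 0.0039 to 0.51). It was called without shNC library 1, at 0.41, but stood at 0.11 and was not called without shNC library 2. By CPM, both knockdown libraries lay above both controls for each of these 3 enzymes, but the groups did not overlap in 75.5% of all genes tested. For HSD17B7 the gap was narrow, 12.82 CPM in shMETTL14 library 1 against 12.44 CPM in shNC library 1. Reads of HSD17B7 and of FDPS can be shared with pseudogene copies.

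DHCR7, which reduces the last precursor to cholesterol, rose from 1657 and 1813 counts to 2115 and 2153, with a change of 0.31 in log2 units (SE 0.054, adjusted p 5.6e-05). EBP, the sterol isomerase, had 309 and 360 counts in shNC and 416 and 419 in shMETTL14. The spread of its controls was wide, and without shNC library 1 the log2 fold change went from 0.33 to 0.19 and was no longer called (adjusted p 0.0081 before and 0.175 after, the highest over 11 alternatives). EBP was not called with DESeq2 either (adjusted p 0.0969). SC5D, the sterol desaturase between them, was not called at -0.04, with 1953 and 2041 counts against 1907 and 1947. TM7SF2, a sterol reductase, fell from 480 and 459 counts to 391 and 381, a log2 difference of -0.27 (SE 0.0853, adjusted p 0.0103) that DESeq2 did not call (adjusted p 0.145, the highest over 11 alternatives). CYP51A1, the lanosterol demethylase, had only 108 and 91 counts against 61 and 86. Because 79.35% of its exon bases are shared with annotated genes on the same strand, its counts are uncertain, and its log2 fold change of -0.43 (adjusted p 0.0795) may not describe the whole gene. Its value depended on single libraries: it was called without shMETTL14 library 2 (-0.71) and with upper quartile scaling (-0.49), but stood at -0.19 and was not called without shMETTL14 library 1.

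**Figure D2:**
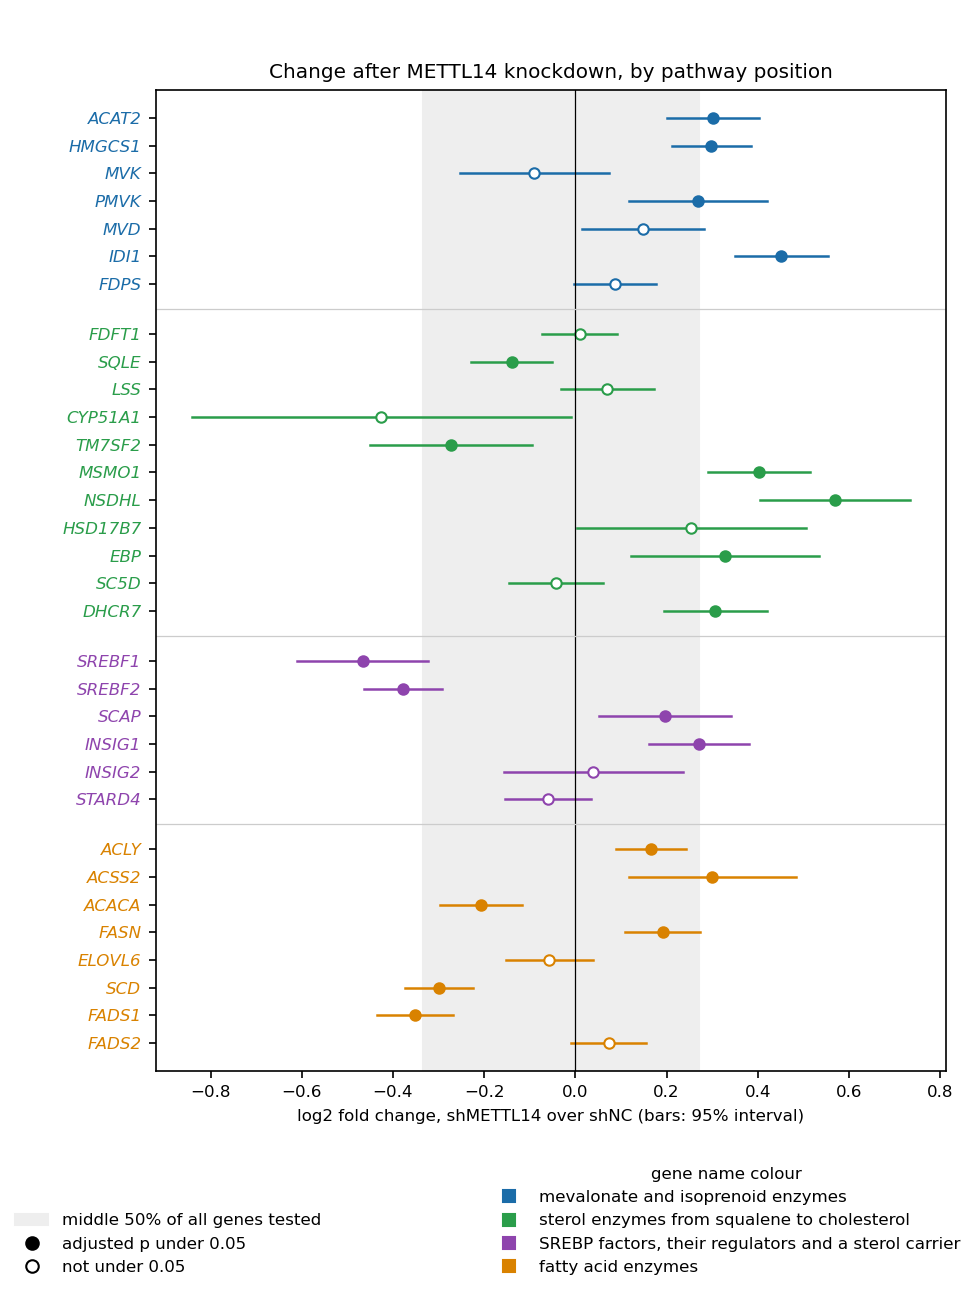
Log2 fold change of shMETTL14 over shNC for each of the 32 genes, in pathway order, with 95% intervals; filled points have an adjusted p under 0.05, and the grey band holds the middle of the distribution of all genes tested (lower to upper quartile), from -0.334 to 0.272. IDI1, MSMO1, NSDHL, EBP, DHCR7, ACAT2, HMGCS1 and ACSS2 lie above the band, and CYP51A1, SREBF1, SREBF2 and FADS1 below it.

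Of the SREBP genes and their regulators, 2 rose, 2 fell and 2 did not pass the test, with a median log2 fold change of -0.01. The share called was 66.67%, against 52.5% of all genes tested and 58.51% of protein-coding genes. Both transcription factor genes fell. SREBF2, which encodes the factor that mainly drives sterol genes, had 6490 and 6262 counts in shNC and 5069 and 4681 in shMETTL14. Its log2 fold change was -0.38 (SE 0.041, adjusted p 8.7e-08), or 76.9% of the control. SREBF1, whose product mainly drives fatty acid genes, had 976 and 940 counts against 732 and 646, a change of -0.47 in log2 units (SE 0.0693, adjusted p 6.9e-06). In both genes every knockdown library lay below both controls, while 75.5% of all genes tested had no overlap in either direction. SREBF1 shares 6.92% of its exon bases with RAI1 on the opposite strand.

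INSIG1, which holds the SREBP complex in the endoplasmic reticulum and is itself a sterol-regulated gene, rose from 1416 and 1299 counts to 1587 and 1666, a change of 0.27 in log2 units (SE 0.0525, adjusted p 0.00017). Its paralog INSIG2 was not called, with 404 and 367 counts against 369 and 418. The log2 fold change of INSIG2 was 0.04, with an interval from -0.16 to 0.24 that overlapped the interval of INSIG1 (0.16 to 0.38). SCAP, the escort protein, had 736 and 717 counts against 869 and 786 and a change of 0.20 in log2 units (adjusted p 0.0218). This call was lost with library size alone (0.15), with DESeq2 (0.20), with upper quartile scaling (0.13), without shNC library 1 (0.18) and without shMETTL14 library 1 (0.14); the adjusted p ranged from 0.013 to 0.243 over 11 alternatives. STARD4, a carrier of sterols between membranes, was not called at -0.06 (interval -0.16 to 0.03), but it was called lower with upper quartile scaling (-0.13).

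The fatty acid enzymes divided evenly: 3 of 8 rose, 3 fell and 2 did not pass the test, with a median log2 fold change of 0.008. Calls made up 75% of these 8 genes, against 52.5% of all genes tested and 58.51% of protein-coding genes. The genes that supply acetyl-CoA were higher. ACLY, which cleaves citrate, had 11262 and 11034 counts in shNC and 12619 and 12228 in shMETTL14, a log2 difference of 0.17 (SE 0.0368, adjusted p 0.00068). ACSS2, which activates acetate, had 471 and 553 counts against 639 and 615. It was called at 0.30 (adjusted p 0.0067), but without shNC library 1 the value was 0.16 and was not called (adjusted p 0.177), and without shNC library 2 it was 0.45. Nor was it called with DESeq2 (adjusted p 0.0683, with a range from 0.000302 to 0.177 over 11 alternatives).

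The enzymes that make palmitate moved apart. FASN, the fatty acid synthase, rose from 5927 and 5430 counts to 6456 and 6422 (log2 fold change 0.19, SE 0.0398). ACACA, the acetyl-CoA carboxylase that feeds it and sets the pace of the route, fell from 4550 and 4070 counts to 3764 and 3651 (log2 fold change -0.21, SE 0.043). The adjusted p was 0.00035 for each.

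Of the desaturases, SCD and FADS1 fell. SCD, which makes monounsaturated fatty acids, had 18927 and 18531 counts in shNC and 15327 and 14944 in shMETTL14, a change of -0.30 in log2 units (SE 0.0359, adjusted p 3.9e-07). FADS1, a desaturase of polyunsaturated fatty acids, had 6690 and 6143 counts against 5081 and 4909, or 78.4% of the control (log2 fold change -0.35, SE 0.0401, adjusted p 1.8e-07). Its neighbour FADS2, the desaturase acting earlier in the same series, was not called, with 7399 and 6854 counts against 7612 and 7277 and a log2 fold change of 0.07 (interval -0.0085 to 0.15). The intervals of FADS1 (-0.43 to -0.27) and FADS2 did not overlap. Both genes lie on chromosome 11 on opposite strands and share under 5% of their exon bases with coding genes, FADS1 4.79% and FADS2 4.89%. ELOVL6, the elongase acting on palmitate, was not called at -0.06 (interval -0.15 to 0.04), but it was called lower with upper quartile scaling (-0.12).

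Ratios of counts within a library do not depend on scaling, and 6 pairs were chosen after their values were seen. FADS1 to FADS2 was 0.9042 and 0.8963 in shNC and 0.6675 and 0.6746 in shMETTL14. SCD to ACLY went from 1.681 and 1.679 to 1.215 and 1.222, and FASN to ACACA from 1.303 and 1.334 to 1.715 and 1.759. HMGCS1 to SREBF2 went from 0.4908 and 0.5057 to 0.7816 and 0.8118. INSIG1 to INSIG2 was 3.505 and 3.54 against 4.301 and 3.986. SREBF1 to SREBF2 moved little, from 0.1504 and 0.1501 to 0.1444 and 0.138. The groups did not overlap in any of the 6, nor did they in 75.5% of the single genes tested. Because the pairs were picked with their values known, this count says nothing further about them. The ratios were not tested, since 2 libraries against 2 allow an exact permutation p (two-sided) of 0.333 at the least.

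**Figure D3:**
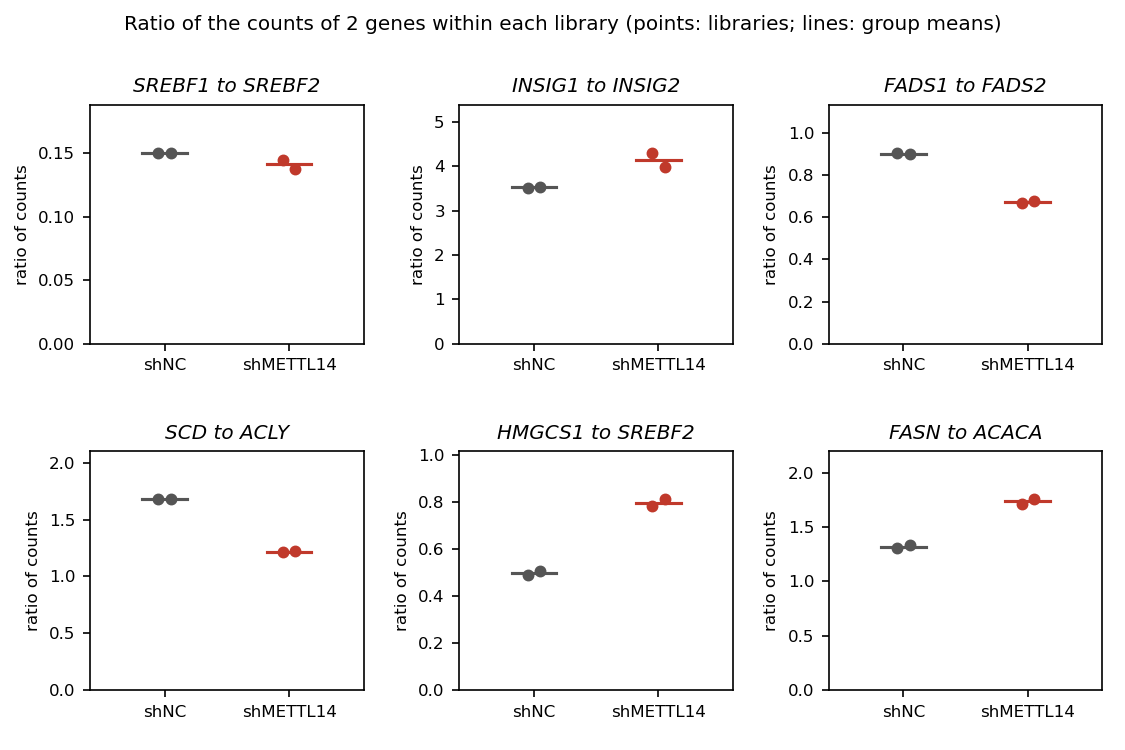
Ratio of the raw counts of 2 genes within each library for 6 pairs, with each axis starting at 0; points are libraries and lines are group means. FADS1 to FADS2 falls from about 0.90 to 0.67 and HMGCS1 to SREBF2 rises from about 0.50 to 0.80, while SREBF1 to SREBF2 moves least.

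Levels between genes were compared as CPM per kb of annotated exon. In shNC cells SCD was the most abundant of the 32 genes at 178.8 CPM per kb, followed by ACLY at 109.4 and then by FDFT1 at 49. SREBF2 stood at 43.2 CPM per kb and SREBF1 at 6.11, the pair differing far beyond the spread of either. After knockdown SCD stood at 145.4 and ACLY at 122.7 CPM per kb, so their order did not change. CYP51A1 was lowest at 1.42 CPM per kb, where the shared exon bases described above apply, followed by HSD17B7 at 2.35 and MVK at 4.60. The fatty acid enzymes summed to 2868 and 2845 CPM in shNC and 2724 and 2694 CPM in shMETTL14, a level not divided by length. This sum mostly follows SCD, which alone had a mean of 958.7 CPM in shNC and 779.6 CPM in shMETTL14. Of the 8 genes, 4 had a log2 fold change above 0 and 4 below.

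**Figure D4:**
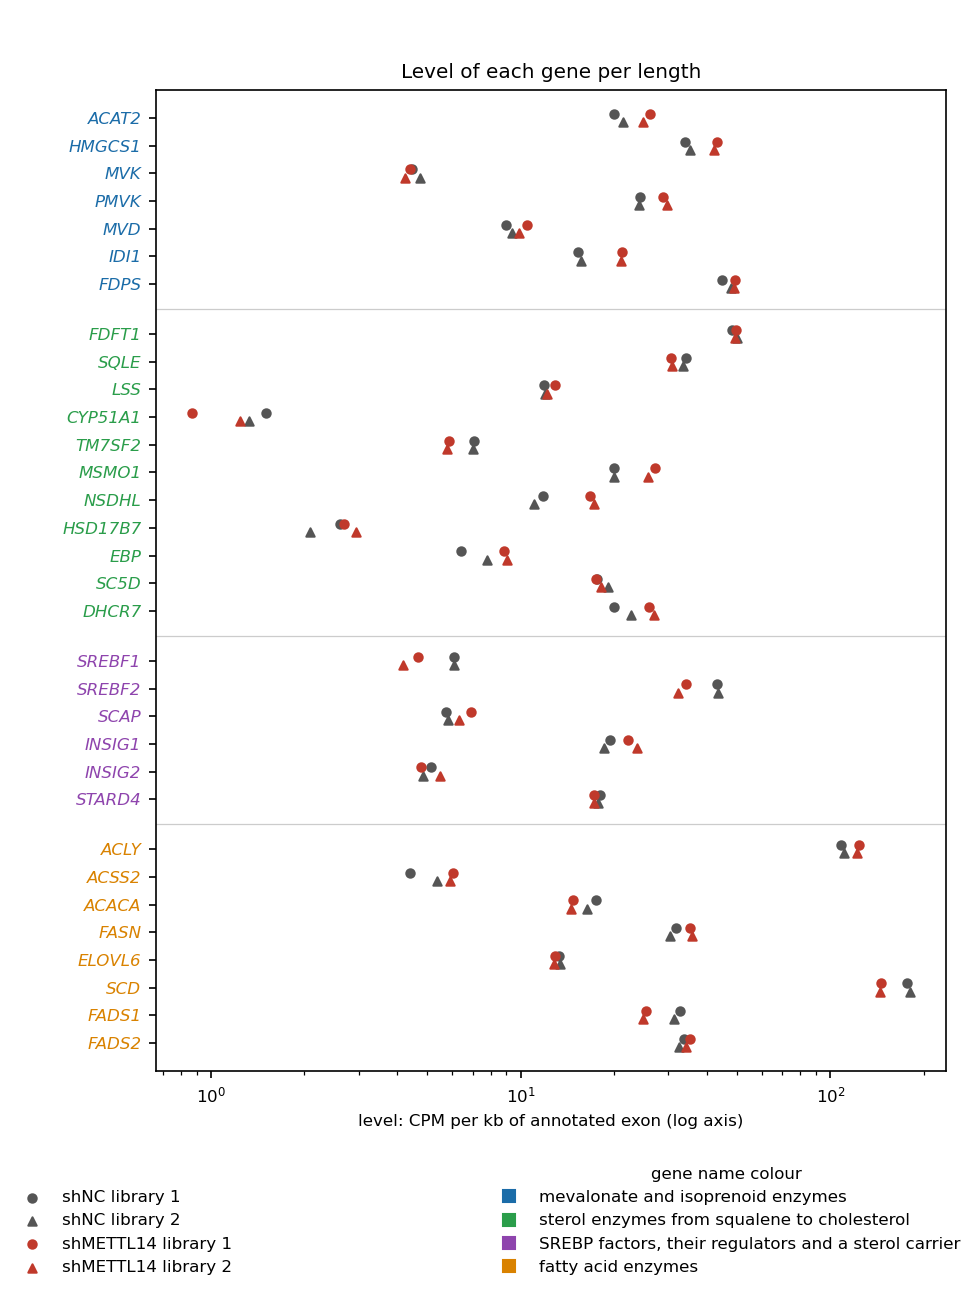
Level of each of the 32 genes in each library as CPM per kb of annotated exon, on a log axis; grey marks are shNC and red marks shMETTL14. SCD (178.8 in shNC) and ACLY (109.4) stand above all others, and CYP51A1 (1.42) is lowest.

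What the promoters of these genes share was read from RefSeq (GRCh38.p14), which held 28 of the 32 promoters (not ACAT2, FDFT1, SQLE and FASN), each from 250 bases before to 50 after the start. Words were searched on both strands; the word TCACNCCA stands for the core of the sterol regulatory element, to which SREBP factors bind. It was found in 3 of the 28 promoters (10.7%, exact 95% interval 2.27 to 28.2), against 3.93% of all 27305 promoters and 3.18% of the 11335 promoters of tested genes. All 3 genes with the word are shown, and they moved in different ways: MSMO1 rose, SREBF2 fell and MVK was not called. Each window of 30 bases is printed on the plus strand, which is the strand of the gene, with the word in capitals. The MSMO1 word began 156 bases before the start (window chr4:165327502-165327531), the SREBF2 word 133 bases before (chr22:41832961-41832990) and the MVK word 195 bases before (chr12:109573588-109573617), the last lying inside the longer gene model of GENCODE 29.
MSMO1: tctcactatccTCACTCCAtccgcggagcc
SREBF2: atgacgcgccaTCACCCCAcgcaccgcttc
MVK: gttcgcagttcTCACCCCAgggcgggacac

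The word CCAAT, the box of the factor NF-Y that acts beside SREBP, was found in 18 of the 28 promoters (64.3%, interval 44.1 to 81.4), against 36.8% of the promoters of tested genes. GGGCGG, the GC box of Sp1, was found in 26 (92.9%, interval 76.5 to 99.1) against 69.6%, and the E-box CACGTG in 4 (14.3%, interval 4.03 to 32.7) against 10.1%. A match is a description of these letters, not a bound site. GGACT, a core word of m6A sites, occurred at a median of 0.79 per kb in the longest coding transcripts of the 32 genes and 0.93 per kb in those of all protein-coding genes tested, and in MSMO1, INSIG1 and ACSS2 not at all. Across the 32 genes its density and the log2 fold change had a Pearson r of 0.12, given as a description.

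Further lipid genes were read from 5 lists, in which 61 of 74 genes could be tested. Of these, 16 were called higher and 20 lower, or 59.02%, near the 52.5% of all genes tested and 58.51% of protein-coding genes. By list the called share ran from 50% (further sterol pathway genes) to 66.67% (fatty acid oxidation). In the list on SREBP processing and sterol-regulated degradation, 3 of 11 rose and 3 fell. SPRING1, which is needed for SREBP cleavage, rose most (log2 fold change 0.67, adjusted p 3.2e-08), and the ubiquitin ligase RNF145 was also higher (0.39), whereas ERLIN2 (-0.36), the ubiquitin ligase MARCHF6 (-0.30) and the SREBP protease MBTPS1 (-0.23) fell. Among the further sterol pathway genes, FAXDC2 (-1.84) and LBR (-0.13) fell, out of 4 tested. FAXDC2 dropped from 563 and 498 counts to 145 and 150, whereas LBR was not called with DESeq2 or without shMETTL14 library 1 (-0.12). FAXDC2 shares 2.26% of its exon bases with CNOT8 on the opposite strand.

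Of the liver X receptor targets and genes of sterol storage and export, 9 of 14 could be tested, of which 1 rose and 4 fell. These calls were 55.56% of the list, against 52.5% of all genes tested. MYLIP (-0.73), NPC2 (-0.61) and NR1H3 (-0.535), which encodes a liver X receptor, fell, and LIPA, the lysosomal lipase, rose (0.16). NR1H3, NPC2 and LIPA share 4.17%, 3.75% and 1.32% of their exon bases with ACP2, ISCA2 and IFIT2 on the opposite strand. NPC2 rested on 103 and 101 counts against 83 and 50. It was not called with DESeq2, without shMETTL14 library 2 (-0.30) or without shNC library 2 (-0.59), and without shMETTL14 library 1 it stood at -1.005. LIPA was not called with DESeq2, upper quartile scaling (0.095), library size alone (0.12), without shNC library 1 (0.088) or without shMETTL14 library 2 (0.12).

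In further fatty acid synthesis and elongation, 22 of 27 genes could be tested, 7 rose and 6 fell. Calls were 59.09% of those tested, against 52.5% of all genes tested. The elongases went both ways. ELOVL4, which makes very long chains, rose from 183 and 166 counts to 346 and 320 (log2 fold change 0.94), and ELOVL5, which acts on polyunsaturated chains, fell from 5598 and 5366 counts to 3743 and 3556 (-0.58). ELOVL7 (1.46) and ACSL6 (1.03) were called higher on fewer than 50 counts in every library; neither was called with DESeq2 or without shNC library 2, where they stood at 1.125 and 0.46, and ACSL6 was also lost without shMETTL14 library 2 (0.92). Without shNC library 1 ACSL6 stood at 2.02. ACSL6 also shares 15.44% of its exon bases with AC026398.1 on the same strand, so its counts are uncertain. The paralogs SCD5 (-0.85) and ACACB (-0.56) were lower, as were SCD and ACACA. In fatty acid oxidation, 15 of 17 genes could be tested, with 5 higher and 5 lower, or 66.67% called. CPT1A, the gate for fatty acid entry into mitochondria, rose from 1772 and 1822 counts to 2959 and 2936 (0.72), and ETFA (0.30) was also higher. SLC25A20 was called at 0.39 but kept its call only with RLE scaling, with the replicate block and without shMETTL14 library 2; its lowest value was 0.23, without shMETTL14 library 1. PPARA, a receptor that activates oxidation genes, fell from 386 and 365 counts to 129 and 107 (-1.66), and ACADS (-0.55) fell too.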

How the data were processed

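RNA was sequenced as paired ends on an Illumina NovaSeq. The authors deposited raw read counts per Ensembl gene ID, 1 column per library. Their processing notes name HISAT2 2.1.0, StringTie 1.3.6, HTSeq 0.13.5 and edgeR, with GRCh38; the annotation release and strand setting are not given in the sources used here, so genes overlapping on opposite strands are uncertain. Lines that name no gene held between 19.102% and 19.861% of counts and were left out. Symbols came from a gene name table, and coordinates, exon lengths and overlaps from GENCODE 29.

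Counts were tested with edgeR 4.0.16 in R 4.3.3 (TMM, filterByExpr with a minimum count of 10 and total of 15, quasi-likelihood F-test on the group), with Benjamini-Hochberg adjustment over all 16309 genes and a threshold of 0.05. Intervals are 95% and cover the spread between these libraries only. CPM are TMM-scaled. The procedure was run on simulated counts in which far fewer genes changed than were called here, so that run does not give its error rate in these data. Replicates differed by more than sampling noise (mean chi-square per gene 2.661 in shNC and 2.214 in shMETTL14). Alternatives were other scalings, other filters, DESeq2 1.42.0, a replicate block and leaving out each library; with 1 library left in a group, it was assumed to vary like the other group. Members could all be named, with METTL14; of each further list, the called genes with the largest change were named, at most 3 higher and 3 lower. Members and lists were chosen with earlier results of these data known. Some genes of the further lists are not reported here.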

Additional observations from a re-analysis of the deposited data

How the results depend on the processing

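Over the 11 alternatives, METTL14 was called lower in each, from -1.33 to -1.21. Of the 20 called members, 14 kept direction and call in each alternative, among them IDI1, NSDHL, MSMO1, SREBF1, SREBF2, SCD and FADS1. Members called higher numbered between 9 (DESeq2) and 14, and members called lower between 5 (DESeq2) and 10 (upper quartile scaling), where the main values were 13 and 7. With DESeq2, 5556 rather than 8561 genes, 14 of the members and 23 rather than 36 genes of the further lists were called; the cause was not tested. With upper quartile scaling the higher share of calls fell from 65% to 54.55% in the members. In all genes that share was 41.71%, while in the main fit 4438 of the 8561 calls were higher. The median log2 fold change of expressed genes shifted by -0.0676 with upper quartile scaling. The members' median, 0.08, changed to 0.01192 under upper quartile scaling, to 0.03447 under library size alone, to 0.06136 when every library needed 10 counts and to 0.0899 when no filter was set. With 1 library left out it ran from 0.08444 to 0.1054. Signs changed for FDFT1, INSIG2 and SC5D, none of them called. FDFT1 stood at -0.05801 under upper quartile scaling, -0.03544 under library size alone and -0.008587 under the 10-count filter, and ran from -0.01994 to 0.03476 with 1 library left out. INSIG2 stood at -0.0278 under upper quartile scaling and -0.005381 under library size alone, and ran from -0.06563 to 0.139 with 1 library left out. SC5D ran from -0.1084 to 0.02006 with 1 library left out. ELOVL7 and ACSL6 gave no value under the 10-count filter.

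Replicate numbers shared only a number (correlation of same-numbered deviations 0.052). With the replicate block, 21 members were called, MVD being added at 0.1485 (adjusted p 0.0465), and no other member's call changed.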
